A study of Mus musculus with 39 samples.

Results

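The 128 genes described here had their highest mean level at postnatal day 12 (P12) in ribosome-bound RNA of mouse cerebellar granule cells, with lower means at P7 and at P21. They were chosen from these values. Levels are in CPM (counts scaled to the library total). Each of the 9161 protein-coding genes that averaged 10 CPM or more at P12 was scored by the smaller of its P12/P7 and P12/P21 ratios of means, with 0.5 CPM added. The 150 highest scores were taken, and 22 genes of channel, receptor, collagen and guidance families (symbols that begin with 12 set prefixes) were then dropped, which left the 128. The table holds 24100 genes.

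Granule cells are the small excitatory neurons of the cerebellum. In the weeks after birth their progenitors stop dividing, the young neurons migrate inward along Bergmann glia, and their axons, the parallel fibres, form synapses with Purkinje cells. The choice of members compared P7, P12 and P21 and used no library of isolated progenitors. A maximum at P12 therefore does not place a gene between the dividing progenitor and the mature neuron.

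RNA was sequenced in 39 libraries. The mice were of strain C57Bl/6J, which the labels do not state for the Ezh1 cultures. Translating ribosome affinity purification (TRAP) pulls down a tagged ribosomal protein, EGFP-L10a, together with its RNA. It was done at P7 on isolated progenitors of the Math1 line (4 libraries, transgene driven by Atoh1) and at P7, P12 and P21 on cerebellar lysates of the Neurod1 line (5 libraries per age, transgene driven by Neurod1). Each age also had 1 input library of total cerebellar RNA, taken before the pull-down. Cultures of granule cells from P6 to P7 pups were sampled at day 5 in vitro (DIV5) with 100 nM UNC1999, an inhibitor of the histone methyltransferases EZH2 and EZH1, and with DMSO, its solvent, at DIV2 and DIV5, beside freshly isolated cells (DIV0), with 2 libraries per group. Separate DIV5 cultures came from Ezh1 cKO mice, with floxed Ezh1 alleles and Atoh1-Cre (4 libraries), and from Ezh1 wt mice with Atoh1-Cre alone (5 libraries). The labels do not say which libraries came from separate animals or cultures, so p-values measure the spread between libraries.

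Library totals ran between 12.1 M and 38.5 M estimated counts. The markers matched the labels: Atoh1, the transcription factor of progenitors, lay between 609 and 1309 CPM in Math1 TRAP and between 20.1 and 26.1 CPM in P7 Neurod1 TRAP, while Gabra6, the receptor subunit of mature granule cells, lay between 27.2 and 63.8 CPM at P7, 602 and 745 CPM at P12, and 1087 and 1379 CPM at P21. The Ezh1 libraries fell into 2 sets: in 77 of the 122 members measured there, replicates 1 and 2 of the cKO and wt groups all lay on the same side of all later replicates. This was counted over the members only, so it does not show whether they differ from other genes. In bulk RNA, fewer cells of a type and less RNA per cell cannot be told apart. CPM values are not divided by transcript length, so levels are compared between libraries and not between genes.

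Some members lie side by side in the genome. Brinp2 (Entrez 240843, chr1:158245269-158356326, minus strand) and Astn1 (Entrez 11899, chr1:158362273-158691781, plus strand) are transcribed away from each other from starts 5.947 kb apart, by GENCODE vM21 on GRCm38. They encode proteins of related families, and Astn1 is the astrotactin with which young granule neurons hold on to glia. By the gap between gene ends (147.75 kb) the next closest pair was B3galt5 (Entrez 93961, chr16:96235801-96319859), a galactosyltransferase, and Pcp4 (Entrez 18546, chr16:96467606-96525793), a calmodulin-binding peptide, whose starts are 231.81 kb apart on the plus strand. Stretches of 250 bases from RefSeq promoter entries are shown for the 3 of these genes with an entry (GRCm38.p6, plus strand), at chr1:158362054-158362303, chr16:96235551-96235800 and chr16:96467356-96467605. Those of B3galt5 and Pcp4 end just before the gene start. The place of that of Astn1 depends on the annotation. By the RefSeq span, which begins at 158362102, most of the stretch lies inside the gene, with its E-box. By the GENCODE start at 158362273, most of the stretch lies before the gene, again with its E-box. Capitals mark the E-box CAGCTG, a site type of basic helix-loop-helix factors, and the Zic-like motif CAGCAGG, each searched on both strands along with the E-box CAGATG. No match overlapped another.
Astn1: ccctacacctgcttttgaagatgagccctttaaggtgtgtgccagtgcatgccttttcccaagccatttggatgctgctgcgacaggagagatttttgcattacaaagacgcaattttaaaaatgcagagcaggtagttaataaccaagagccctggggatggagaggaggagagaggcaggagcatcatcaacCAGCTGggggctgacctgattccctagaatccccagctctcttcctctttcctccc
B3galt5: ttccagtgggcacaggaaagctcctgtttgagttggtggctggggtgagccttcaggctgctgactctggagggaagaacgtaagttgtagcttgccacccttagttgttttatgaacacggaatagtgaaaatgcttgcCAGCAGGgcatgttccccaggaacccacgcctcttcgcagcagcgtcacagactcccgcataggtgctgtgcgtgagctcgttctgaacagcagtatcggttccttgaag
Pcp4: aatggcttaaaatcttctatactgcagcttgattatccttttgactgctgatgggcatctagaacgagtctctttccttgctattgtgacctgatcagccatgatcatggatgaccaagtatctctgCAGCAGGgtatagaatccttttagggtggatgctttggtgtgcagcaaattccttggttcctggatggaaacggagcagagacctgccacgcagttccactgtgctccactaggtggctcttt
In 300-base windows from 250 bases before to 50 after the start of the genes at 10 CPM or more (7452 windows), CAGCTG was found in 13.6%, CAGATG in 10.2% and CAGCAGG in 9.30%. A window exists for 90 of the 128 members, too few to compare the members' promoter composition with that of other genes, and a match of letters does not show a bound factor.

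The score was between 1.35 and 3.10 with a median of 1.49, so most of the maxima were moderate. Of the 128 members 14 scored at least 2, 48 scored 1.5 to 2 and 66 scored under 1.5. P7 was the nearer of the 2 other ages in 71 members and P21 in 57. The last genes inside the limit were Ap1s3 (1.355), Cadm1 (1.353) and Nhsl2 (1.350), and the nearest outside were Plpp5 (1.349), Slc39a10 (1.348) and Vldlr (1.343), so the limit cuts through a continuous range. All P12 libraries lay above all P7 and P21 libraries in 111 members (86.7%, against 3.6% of the 9161 genes), which the choice of members largely fixes.

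B3galt5, which adds galactose in β-1,3 linkage to glycoproteins and glycolipids, had the highest score. Its levels were 3.87, 4.00, 6.32, 3.62 and 5.64 CPM at P7, 14.3, 13.9, 15.8, 17.4 and 16.5 CPM at P12, and 4.29, 4.02, 4.31, 4.06 and 3.76 CPM at P21. The P12 libraries thus stood far above both other ages, which were close to each other. Zdhhc22, of the protein palmitoyltransferase family, had 8.35, 7.88, 9.79, 7.32 and 10.6 CPM at P7, 21.5, 23.7, 24.1, 22.1 and 22.3 CPM at P12, and 3.41, 5.22, 5.71, 3.83 and 3.41 CPM at P21. Myo1a, an unconventional myosin best known from the intestinal brush border, showed 6.22, 3.34, 6.09, 3.26 and 4.59 CPM at P7, 15.4, 11.7, 11.9, 12.1 and 11.2 CPM at P12, and 0.218, 0.338, 0.456, 0.315 and 0.295 CPM at P21. It was thus near 0 in all P21 libraries, and its P12 mean was 15.7 times its P21 mean with 0.5 CPM added. A fall of at least 5-fold by P21 was shared by 6 members: Myo1a, the galanin receptor Galr1, the carbonic anhydrase Car3, Rapgef3 (Epac1, a cyclic AMP-activated exchange factor for Rap), the secreted protein Mia and the neurexophilin Nxph4.

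Tmem158, Rilp, Traf3ip3 and Megf10 were also among the 20 highest scores. Tmem158, a transmembrane protein induced by Ras, averaged 20.1 ± 4.67 CPM at P7, 45.5 ± 4.02 CPM at P12 and 20.7 ± 4.04 CPM at P21 (SD, n = 5 each). Rilp, which links Rab7 on late endosomes and lysosomes to dynein, averaged 2.95 ± 0.566, 11.6 ± 1.10 and 5.14 ± 0.641 CPM, and Traf3ip3, a TRAF3-interacting protein, 5.95 ± 1.05, 12.7 ± 1.35 and 5.68 ± 1.74 CPM. Megf10, an engulfment receptor with EGF-like repeats, averaged 7.73 ± 1.86, 16.6 ± 3.06 and 8.18 ± 1.30 CPM. In all 4 the P12 libraries were above those of both other ages. Car3, with a score outside the 20 highest, was less even, with 7.51, 3.78, 8.21, 7.47 and 8.56 CPM at P7, 14.9, 6.88, 15.9, 7.50 and 5.67 CPM at P12, and at most 0.461 CPM at P21, so that P12 and P7 overlapped.

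**Figure D1:**
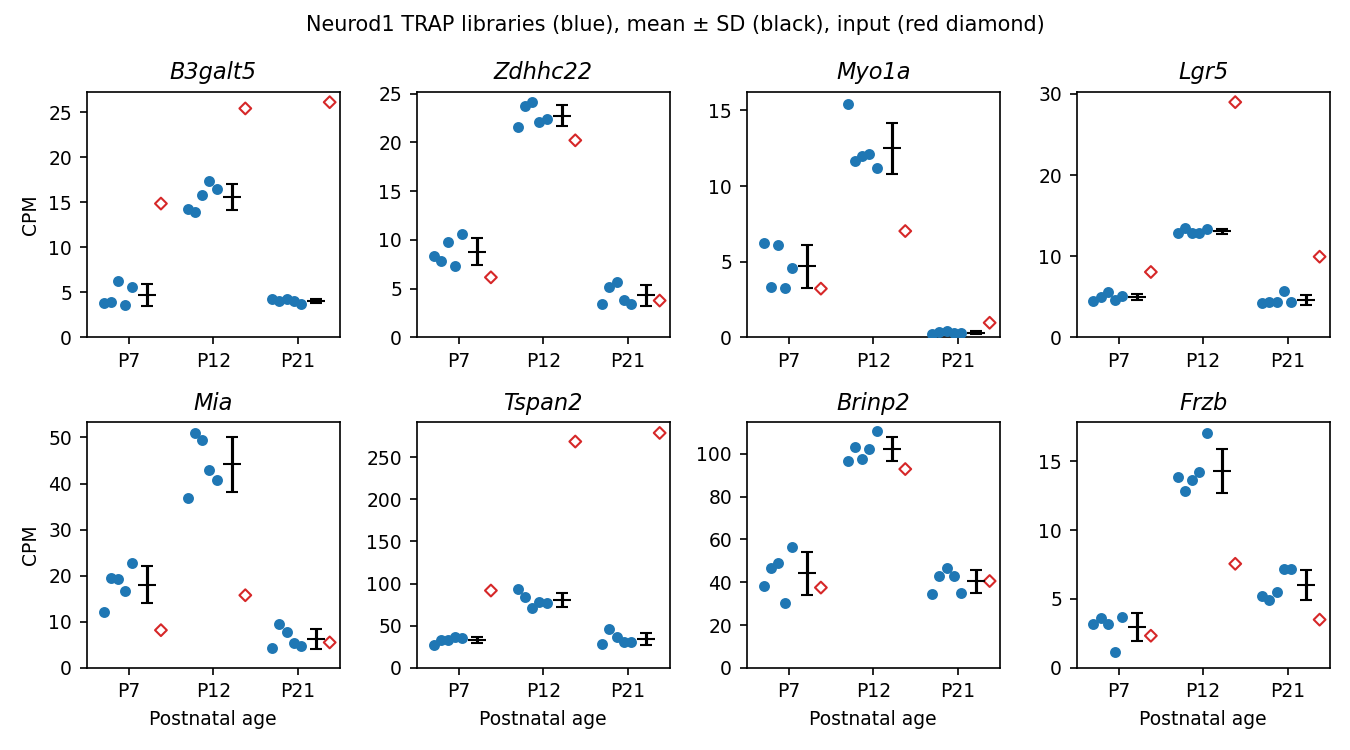
CPM of the 8 members with the highest scores in each Neurod1 TRAP library (blue points, 5 per age) with mean ± SD (black) and in the single input library of that age (red diamonds), by postnatal age. The P12 libraries lie above the P7 and P21 libraries in all 8 panels; the inputs of B3galt5 and Tspan2 are highest at P21.

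The neighbours on chromosome 1 were both chosen for a maximum at P12, so that their courses resemble each other by the rule. Brinp2 averaged 44.1 ± 10.1 CPM at P7, 102 ± 5.59 CPM at P12 and 40.5 ± 5.36 CPM at P21 (SD, n = 5 each). Astn1 averaged 47.6 ± 11.3, 74.6 ± 3.44 and 32.8 ± 1.38 CPM at the same ages. Brinp3, a paralog of Brinp2, was also a member, at means of 17.1, 43.2 and 21.9 CPM.

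By count, the list with most members was synaptic adhesion, with 7 of 53 genes (13.2% of the list, 5.47% of the members), followed by contactins, Cntnaps and immunoglobulin adhesion with 3 of 36 (8.33%). By share of all genes listed, the astrocyte markers stood higher with 2 of 12 (16.7%). The members were 1.40% of the 9161 genes at 10 CPM or more at P12. Of the listed genes at that level, members were 7 of 35 in synaptic adhesion and 2 of 10 in the astrocyte list, which are equal shares. They were 3 of 20 in the contactin list and 1 of 3 in the oligodendrocyte precursor list. In the synaptic adhesion list were Lrrtm2, a postsynaptic neurexin ligand, the teneurin Tenm1, Slitrk2, Cadm2, Cadm1, the Nogo receptor partner Lingo1 and the neuroligin Nlgn1. Lingo1 had 127, 189.5, 186, 129 and 192 CPM at P7, 204, 233, 226, 234 and 232 CPM at P12, and 99.5, 113, 120.4, 97.4 and 95.9 CPM at P21, without overlap between P12 and the other ages. The contactin Cntn1 averaged 171, 259 and 171 CPM, its partner family member Cntnap2 16.6, 24.6 and 16.5 CPM, and the neural cell adhesion molecule Ncam1 124, 178 and 101 CPM. Ncam1 and Cadm2 overlapped by library, Cadm2 with 65.6 to 83.4 CPM at P12 beside 46.0 to 67.8 CPM at P7. The lists of cadherins, cell cycle, mature granule cell, progenitor, microtubule and actin, immediate early and cholesterol synthesis genes held no member.

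Of the 56 extracellular matrix genes 2 were members, Adamts18 and Fbn1, and of the neuropeptide list of 41 Nxph4 and Vgf. Adamts18, a secreted metalloprotease, averaged 43.0, 101 and 45.9 CPM at P7, P12 and P21, Ltbp2, which binds microfibrils, 14.4, 28.6 and 11.3 CPM, and Fbn1, the microfibril protein fibrillin-1, 10.0, 18.7 and 3.45 CPM. Frzb, a secreted Wnt antagonist, averaged 2.96, 14.3 and 5.98 CPM. Lgr5, the R-spondin receptor that strengthens Wnt signals, averaged 4.98, 13.1 and 4.63 CPM and was the only member in the Wnt list of 50 genes. Plppr4, a lipid phosphatase-related protein of glutamatergic synapses, had 54.2, 58.5, 73.2, 46.7 and 77.3 CPM at P7, 139, 144, 122, 148 and 141 CPM at P12, and 42.4, 42.9, 44.5, 48.4 and 47.9 CPM at P21. Spon1, the secreted F-spondin, averaged 27.7, 84.0 and 51.8 CPM at these ages, Igfbp3, which binds insulin-like growth factors, 8.38, 13.7 and 6.10 CPM, and Vgf, the precursor of secreted neuropeptides, 35.3, 48.1 and 26.0 CPM. Cemip, a hyaluronan-degrading protein, averaged 62.7, 94.0 and 23.6 CPM and Pde1b, a calmodulin-dependent phosphodiesterase, 61.9, 88.8 and 39.1 CPM. The P12 libraries of these 5 genes lay above those of P7 and P21.

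Uty, a Y-linked paralog of a histone H3K27 demethylase, differed widely between libraries of the same age. It was listed at 0 in 3 of 5 P7, 2 of 5 P12 and 1 of 5 P21 libraries, with a further P21 library at 0.0856 CPM. Its other libraries held 18.5 and 22.7 CPM at P7, 23.7, 22 and 21.4 CPM at P12, and 11.8, 15.9 and 14 CPM at P21. The sex-linked genes Ddx3y and Xist divided these libraries in the same way. Where Uty was at or near 0, Ddx3y was at most 0.285 CPM and Xist at least 2.28 CPM. In all the others, Ddx3y was at least 25.7 CPM and Xist at most 0.147 CPM. The means that made Uty a member thus depend on how many libraries of each age lay near 0. Whether the sex of the mice set these levels was not tested. Dynlt1b has near-identical copies in the genome among which reads may have been split, and its value is uncertain.

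The Math1 TRAP libraries were not used by the rule, though the P7 Neurod1 libraries beside them were, so their contrast is given without a test. Members were higher in P7 Neurod1 TRAP than in Math1 TRAP in 108 of 128 cases (84.4%, against 51.9% of the 9161 genes), with a median P7 Neurod1/Math1 ratio of 2.06 against 1.02 for these genes. The ratio was at least 4 in 30 members. Fabp3, a fatty acid binding protein, averaged 119.8 ± 24.6 CPM in P7 Neurod1 TRAP (SD, n = 5) and 7.09 ± 3.85 CPM in Math1 TRAP (SD, n = 4). Nefh, the heavy neurofilament subunit, averaged 14.7 CPM in P7 Neurod1 TRAP and 0.478 CPM in Math1 TRAP. Serinc5, a serine incorporator family membrane protein, and Aqp4 were the 2 members with a ratio of at most 0.5, with means of 16.6 and 22.8 CPM in P7 Neurod1 TRAP and of 52.1 and 59.2 CPM in Math1 TRAP. The lines also differ in starting material (lysate of the whole cerebellum, or isolated progenitors), which cannot be told apart from the transgene.

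The inputs also were not used by the rule, but each age has 1 library, so they give values and no test. The P12 input was at least 1.5 times both other inputs in 30 of 128 members (23.4%, against 0.469% of the 9161 genes) and at least equal to both in 109 (85.2%, against 16.3%). The median of the smaller input ratio was 1.25 in the members and 0.848 in all 9161 genes. The labels do not say whether an input and a pull-down of the same age came from the same lysate. Where the input peak was largest, Zdhhc22 had 6.17, 20.2 and 3.79 CPM in the P7, P12 and P21 inputs, Lgr5 8.07, 29.0 and 9.95 CPM, and Fbn1 16.5, 42.4 and 9.77 CPM. Galr1 and Ltbp2 followed, with 8.71, 22 and 1.15 CPM and 15.4, 54.3 and 22.6 CPM.

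In 19 members the highest input was another age, P21 in 14 and P7 in 5. B3galt5 was among them, with 14.9, 25.4 and 26.1 CPM in the P7, P12 and P21 inputs. For Tspan2, a tetraspanin abundant in oligodendrocytes, TRAP means of 32.9, 80.5 and 34.1 CPM at P7, P12 and P21 stood beside 91.7, 268 and 279 CPM in the inputs. Aqp4, the water channel of astrocytes, had means of 22.8, 37.6 and 20.8 CPM in TRAP and levels of 441, 339.7 and 233 CPM in the inputs, which were thus highest at P7. Gfap, the astrocyte filament protein, likewise had 21.7, 35.5 and 13.1 CPM in TRAP and 394, 220.1 and 88.0 CPM in the inputs.

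**Figure D2:**
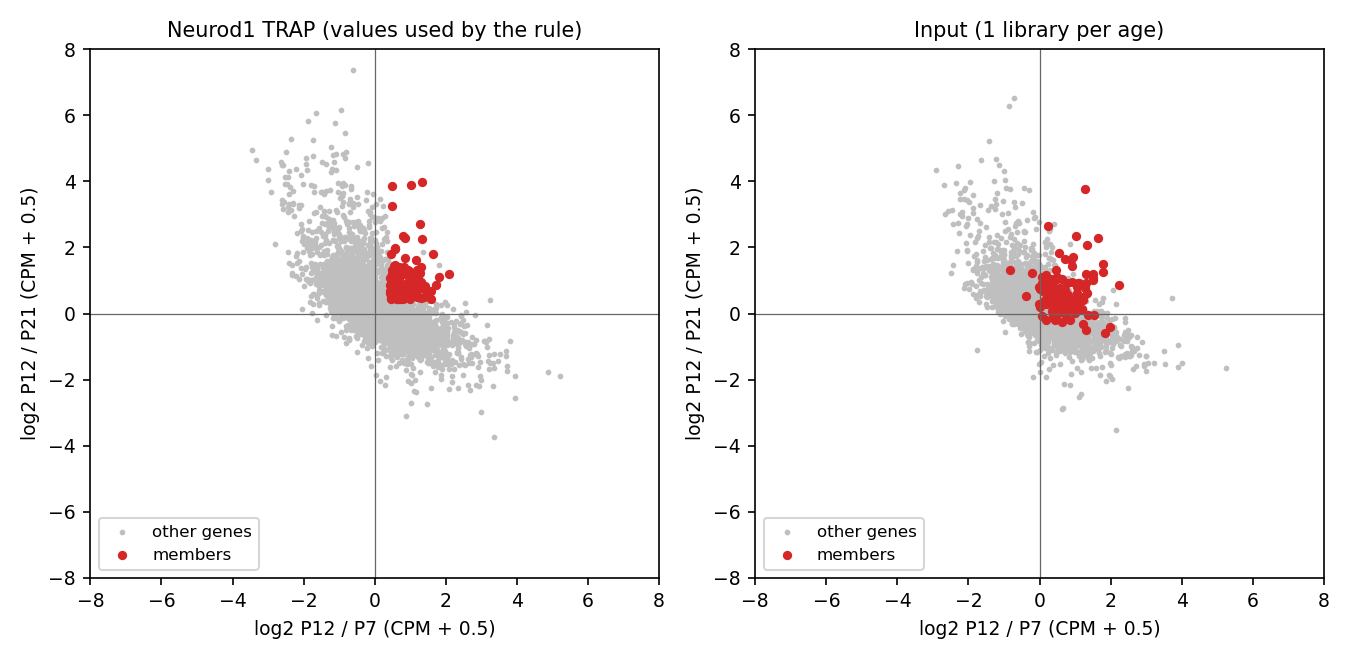
Log2 ratio of P12 to P7 (x axis) against log2 ratio of P12 to P21 (y axis), CPM + 0.5, in Neurod1 TRAP (left, the values that chose the members) and in the inputs (right), for 128 members (red) and the other genes at 10 CPM or more (grey). In the inputs 109 members lie above and to the right of the zero lines or on them, where the P12 input is at least equal to both others.

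The ratio of P12 TRAP to P12 input had a median of 0.893 in the members and 0.945 in the 9161 genes, and TMM scaling moved these to 1.22 and 1.29. Among the members with high ratios were Mia, with 44.2 CPM in TRAP against 15.8 CPM in the input, Dynlt1b, the p53 target Rprm and the calcium-binding protein Necab3. A ratio of at most 0.5 was found in 24 members (18.8%, against 11.5% of the 9161 genes) and one of at least 2 in 9 members (7.03%, against 2.70%). With TMM scaling these counts were 14 and 23, so which of them is larger depends on the scaling. The lowest were 0.112 for Aqp4, 0.163 for Gfap, 0.184 for Gpr17, a receptor of oligodendrocyte precursors, 0.206 for Slc1a6, the glutamate transporter of Purkinje cells, and 0.219 for the exchanger Slc24a2. These members overlap the marker lists of other cells: Aqp4 and Gfap are 2 of 12 astrocyte markers, Gpr17 is 1 of 10 precursor markers and Slc1a6 is 1 of 10 Purkinje markers. The summed astrocyte markers ran from 424 to 648 CPM at P7, 422 to 510.0 CPM at P12 and 289.5 to 347 CPM at P21 in Neurod1 TRAP, the summed Purkinje markers from 322 to 456, 1031 to 1202 and 1354 to 1564 CPM, and the summed oligodendrocyte precursor markers from 165 to 215, 74.8 to 92.9 and 39.5 to 53.0 CPM. Gpr17 is also 1 of 14 newly formed oligodendrocyte markers, whose sum rose with age, from 637 to 658, 794 to 827 and 999 to 1031 CPM. None of these sums was highest at P12, none of these markers was at 0 in TRAP, and their part in the levels of these members was not tested.

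In culture, where no library had a part in the choice of members, most members rose after plating. Against DIV0, 107 of 128 were higher at DIV2 with DMSO and 10 were lower (background 36.4% higher and 35% lower of 15978 genes, 41.9% and 38% of the genes at 10 CPM or more at P12). Their median log2 fold change was 1.63, against 0.02 over all genes tested. All 128 passed the filter on low counts. Summed over the members, levels were 5279 and 5290 CPM at DIV0, 16030.0 and 16262 CPM at DIV2, and 15587 and 15943 CPM at DIV5 with DMSO.

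Amer3, a membrane-associated regulator of the Wnt pathway, had 1.76 and 1.78 CPM at DIV0, 166 and 165 CPM at DIV2, and 83.5 and 83.5 CPM at DIV5. Its log2 fold change at DIV2 was 6.57 ± 0.09 (SE, adjusted p = 2.85e-15), and the groups did not overlap, as for 85.1% of all genes tested with these 2 libraries each. Plppr4 held 27.2 and 24.8 CPM at DIV0, 374 and 375 CPM at DIV2, and 265 and 279.7 CPM at DIV5. Pcp4 rose by 5.22 ± 0.09 at DIV2 and Ltbp2 by 5.19 ± 0.09. Of the neighbours on chromosome 1, Brinp2 had 16.6 and 15.7 CPM at DIV0, 189.8 and 189 CPM at DIV2, and 103 and 111 CPM at DIV5. Astn1 had 113 and 109 CPM at DIV0, 210.3 and 211 CPM at DIV2, and 114 and 121 CPM at DIV5, and its log2 fold change of DIV5 against DIV0 was -0.03 ± 0.05 (adjusted p = 0.561), where that of Brinp2 was 2.62 ± 0.06 (adjusted p = 8.96e-14).

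At DIV5 against DIV2, both with DMSO, 74 members were lower and 33 higher (background 35.7% lower and 31.1% higher). Among genes at 10 CPM or more at P12, 53.6% were lower and 19.9% higher, so the members' 57.8% and 25.8% were near the share of genes of like level. Members were higher at DIV2 than at both DIV0 and DIV5 in 66 of 128 cases (51.6%). The shares were 16.7% of all genes tested and 25% of genes at 10 CPM or more at P12. The pair of calls shares the DIV2 libraries. Of the 107 members higher at DIV2 than at DIV0, 66 were then lower at DIV5. Among genes at 10 CPM or more at P12 this held for 2289 of 3833, a like share. The excess of DIV2 maxima among the members thus lies in the rise at DIV2 and not in the later fall. By the smaller of the 2 fold changes, the steepest DIV2 maximum was that of Ky, a protease known from muscle, with 9.41 and 8.34 CPM at DIV0, 31.5 and 31.0 CPM at DIV2, and 9.17 and 9.34 CPM at DIV5. Necab3 had 39.4 and 35.7, 103 and 99.2, and 20.4 and 20.7 CPM at these times, Nxph4 36.1 and 36.7, 97.9 and 92.1, and 30.3 and 29.3 CPM, and Myo1a 3.95 and 3.26, 46.0 and 33.8, and 15.7 and 16.6 CPM. In none of these did the DIV2 libraries overlap those of DIV0 or DIV5, a separation that held between DIV5 and DIV2 for 80.5% of all genes tested.

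**Figure D3:**
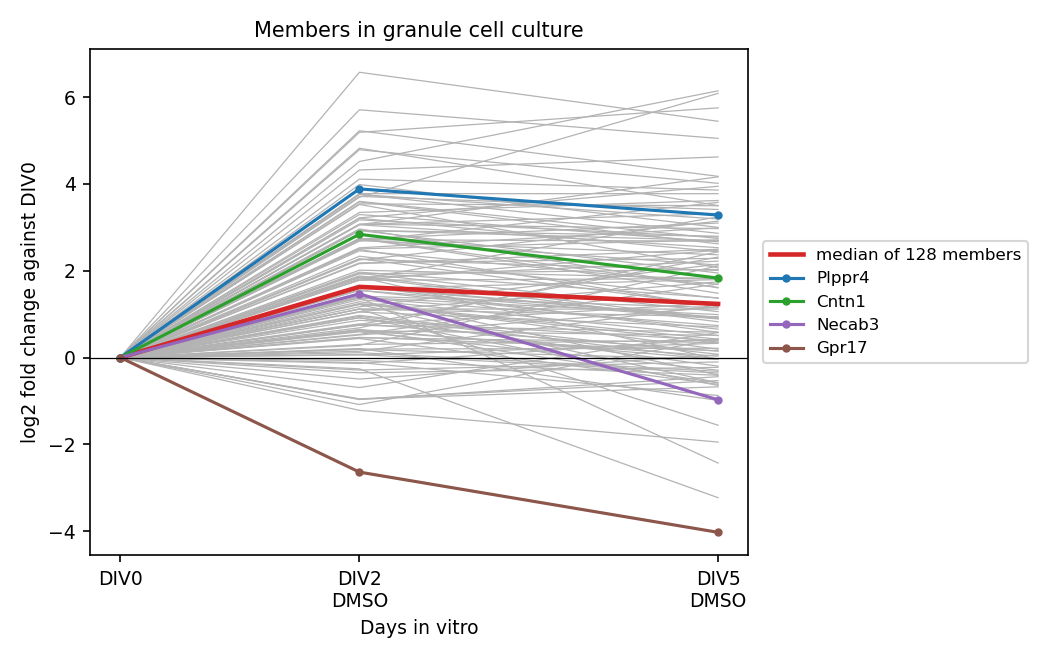
Log2 fold change against DIV0 (y axis, from the fit) at DIV0, DIV2 and DIV5 with DMSO (x axis, days in vitro) for each of 128 members (grey lines), their median (red) and 4 named members. The median is 1.63 at DIV2 and 1.23 at DIV5; Plppr4, Cntn1 and Necab3 are highest at DIV2 and Gpr17 falls at both times.

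Of the 7 synaptic adhesion members, 6 rose at DIV2 and 5 of these fell at DIV5. The list as a whole had 33 of 53 tested genes higher and 12 lower at DIV2, with a median log2 fold change of 1.00, and 10 higher and 32 lower at DIV5 against DIV2. Lingo1 had 125 and 128 CPM at DIV0, 226 and 243 CPM at DIV2, and 87.8 and 87.3 CPM at DIV5. Cadm2 had 53.5 and 49.2, 395 and 388, and 164 and 173 CPM at these times. Cadm1 alone was not called at DIV2 (log2 fold change 0.06). Cntn1, Cntnap2 and Ncam1 all rose at DIV2 and fell at DIV5. Cntn1 had 91.9 and 93.5 CPM at DIV0, 647 and 653 CPM at DIV2, and 348 and 365 CPM at DIV5. Among other genes of early differentiation and migration, a list of 26 with Astn1 as its member, 16 were higher and 10 lower at DIV2, and 26 of 26 were lower at DIV5 against DIV2. Of 19 mature granule cell genes, none of them a member, 16 rose and 2 fell at DIV2.

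Another 23 of the 128 members were called higher at DIV2 than at DIV0 and again at DIV5 than at DIV2 (18%, against 9.99% of all genes tested and 7.21% of genes at 10 CPM or more at P12). Fbn1 had 11.2 and 12 CPM at DIV0, 211 and 312 CPM at DIV2, and 972 and 808 CPM at DIV5, a rise by 1.63 ± 0.22 between DIV2 and DIV5 (adjusted p = 0.00207). Ltbp2 had 5.83 and 5.78, 219 and 195, and 317 and 359 CPM, Aqp4 121 and 125, 209 and 199, and 649.5 and 676 CPM, and Gfap 44.8 and 47.1, 377 and 375, and 872 and 908 CPM at these times. Each rose at both steps without overlap between times. Cemip had 108 and 103, 481 and 500.3, and 1024 and 987 CPM at these times, and Vgf 17.8 and 19.2, 42.1 and 39.5, and 81.9 and 96.0 CPM. Irf9, a factor of the interferon response, had 18.9 and 19.9, 24.7 and 21.4, and 85.4 and 96.1 CPM, with most of its rise after DIV2. Outside these 23, the steroid dehydrogenase Hsd17b11 had 18.9 and 20.2, 22.4 and 19.9, and 49.8 and 48.5 CPM, with DIV2 overlapping DIV0 and DIV5 above both. Over the same times the 14 vascular and meningeal markers summed to 1025 to 1034, 3423 to 5693 and 14937 to 16551 CPM, the 12 astrocyte markers to 946 to 957, 1075 to 1088 and 2699 to 2750.3 CPM, and the 11 microglial markers to 104 to 108, 113 to 114 and 821 to 862 CPM. The part of these cells in the levels of Fbn1, Ltbp2, Aqp4, Gfap and the other rising members was not tested. In P12 TRAP the vascular and meningeal sum was 51.9 to 68.6 CPM, with 4 of its 14 markers under 1 CPM.

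Of the 10 members lower at DIV2 than at DIV0, Gpr17 had 35.6 and 37.4 CPM at DIV0, 5.40 and 6.17 CPM at DIV2, and 2.29 and 2.52 CPM at DIV5, a log2 fold change of -4.03 ± 0.14 at DIV5 against DIV0 (adjusted p = 2.23e-12). Serinc5 fell to 71.9 and 74.9 CPM at DIV2, against 145 and 146 CPM at DIV0. Id2, an inhibitor of helix-loop-helix factors and the only member in the list of 60 granule lineage transcription factors, fell to 55.9 and 51.5 CPM at DIV2, against 108 and 107 CPM at DIV0. Tspan2 fell to 13 and 13.7 CPM at DIV2, against 26.3 and 26.2 CPM at DIV0. Far2, a fatty acyl-CoA reductase, fell to 6.79 and 5.86 CPM at DIV2, against 14.2 and 15.9 CPM at DIV0, and Igfbp3 to 5.79 and 5.92 CPM, against 12.6 and 12.7 CPM. None of these pairs of groups overlapped. At DIV5 against DIV0, 95 members were higher and 22 lower (background 40.2% higher and 38.2% lower of all genes tested, 35% and 49% of genes at 10 CPM or more at P12). Zfp804a, a zinc finger protein, had 9.53 and 9.68 CPM at DIV0, 8.34 and 7.29 CPM at DIV2, and 1.03 and 1.17 CPM at DIV5. Adgrb3, an adhesion receptor for C1q-like proteins, had 81.9 and 83.0, 93.1 and 93.6, and 42.0 and 47.7 CPM at these times. Enpp2, the secreted lysophospholipase autotaxin, had 49.5 and 49.4, 44.1 and 45.5, and 28.7 and 29.6 CPM. In these 3 genes the DIV5 libraries lay below the DIV0 libraries, and between DIV5 and DIV0 89.3% of all genes tested did not overlap.

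Members were also counted by their late TRAP level. Among the 71 members with a lower P21 mean, 59 rose and 6 fell at DIV2, and among the 57 with a higher P21 mean 48 rose and 4 fell. At DIV5 against DIV2, 43 of the 71 and 31 of the 57 were lower. The difference between these groups was not tested.

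With UNC1999, 31 members were higher and 17 lower than with DMSO at DIV5 (24.2% and 13.3%, against a background of 6.36% and 5.53% of all genes tested and of 9.63% and 4.28% of genes at 10 CPM or more at P12). The counts depended on single libraries: they were 19 and 7 without UNC1999 replicate 2, 22 and 11 without DMSO replicate 1, 21 and 9 without DMSO replicate 2, and 19 and 11 with DESeq2. Calls over all genes fell as well, from 1016 higher and 883 lower. In the same order of settings they were 601 and 331, 619 and 320, 671 and 626, and 498 and 457. The members' median log2 fold change was 0.10, against 0.00 over all genes tested. Rises and falls offset each other in this signed median, so it does not give the size of the shifts.

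Among the genes that rose, D430041D05Rik had 652 and 696 CPM with UNC1999, against 458 and 457 CPM with DMSO (log2 fold change 0.56 ± 0.05, adjusted p = 1.62e-05). Disp3, of the Dispatched and Patched-related family, had 42.3 and 44.8 CPM against 27.4 and 27.4 CPM (0.67 ± 0.07, adjusted p = 6.47e-05), and Sez6, a neuronal surface protein, 789 and 796 CPM against 569 and 614 CPM (0.42 ± 0.05, adjusted p = 8.76e-05). Eps8, which caps and bundles actin, had 268 and 264 CPM against 197 and 201 CPM, and Nptxr, the neuronal pentraxin receptor, 165 and 169.7 CPM against 100.4 and 121 CPM, in the same order of treatments. In all 5 the UNC1999 libraries lay above the DMSO libraries, and 55.6% of all genes tested had no overlap in this comparison. The steepest rise among the calls, picked out after the values were seen, was that of Galnt15, a GalNAc-transferase family member, at 29.1 and 32.5 CPM with UNC1999 against 15.7 and 14.3 CPM with DMSO. Of the synaptic adhesion members 4 of 7 rose (Lingo1, Tenm1, Slitrk2 and Cadm1) and none fell, while in the whole list 15 of 53 rose and 2 fell. Lingo1 had 121 and 119.8 CPM with UNC1999, against 87.8 and 87.3 CPM with DMSO, and Tenm1 141 and 131 CPM with UNC1999, against 99.4 and 89.4 CPM with DMSO. Of the 19 mature granule cell genes 16 rose with UNC1999 and none fell.

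The largest fall was that of Myo1a, to 6.73 and 5.57 CPM with UNC1999, against 15.7 and 16.6 CPM with DMSO (log2 fold change -1.41 ± 0.17, adjusted p = 0.000326). Rapgef3 fell to 9.98 and 13.1 CPM, against 21.6 and 24.5 CPM (-0.99 ± 0.13, adjusted p = 0.000358), and Tspan2 to 13.8 and 12.8 CPM, against 20.7 and 18.7 CPM (-0.57 ± 0.10, adjusted p = 0.00239). Ltbp2 and Aqp4 had smaller changes, of -0.32 ± 0.06 and -0.24 ± 0.05, and the call of Aqp4 was lost without UNC1999 replicate 2 (adjusted p = 0.0544). The vascular and meningeal markers summed to 13996 and 14041 CPM with UNC1999, against 14937 and 16551 CPM with DMSO, and the astrocyte markers to 2239 and 2471 CPM, against 2699 and 2750.3 CPM. The part of this in the changes of Ltbp2 and Aqp4 was not tested. B3galt5 was also lower, at 32.3 and 29.0 CPM against 36.9 and 39.8 CPM (-0.33 ± 0.09, adjusted p = 0.0302), whereas Brinp2 and Astn1 were not called (0.16 ± 0.05 and 0.00 ± 0.05).

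**Figure D4:**
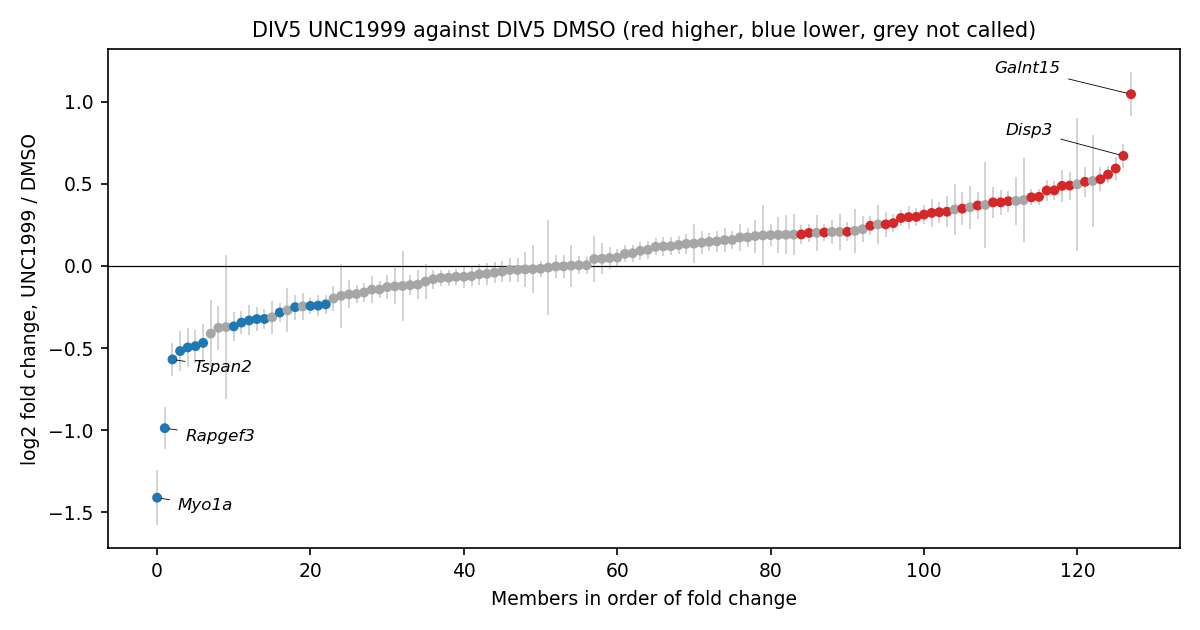
Log2 fold change of UNC1999 against DMSO at DIV5 (y axis, points, with SE as bars) for 128 members in order of their fold change (x axis). The 31 members called higher are red, the 17 called lower blue and the 80 others grey; Myo1a at -1.41 and Galnt15 at 1.05 are the extremes.

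In the Ezh1 cultures the targeted gene was lower in cKO, with 34.8, 36.5, 35.6 and 33.7 CPM in cKO against 40.7, 42.1, 49.9, 47.5 and 41.0 CPM in wt. The groups did not overlap, and the log2 fold change was -0.34 ± 0.09 (unadjusted p = 0.00505, adjusted p = 0.99995). Gene counts include reads outside a deleted part, so this value does not measure the deletion. Of the 128 members 6 (Uty on Y and Tenm1, Zdhhc9, Slitrk2, Dlg3 and Nhsl2 on X) are blank in these libraries and 122 were tested.

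No member was called between Ezh1 cKO and Ezh1 wt (background 0% of 14461 genes), with 2 of 122 at an unadjusted p under 0.05 by edgeR (1.64%, against 1.17% of all genes tested). By DESeq2, which also called no member, 4 of 122 were under 0.05 (3.28%, against 1.88%). With the replicate number as a block, again without a call, 20 members (16.4%, against 9.89% of all genes) were under 0.05, and 14 (11.5%, against 7.92%) with the library set as a term. Log2 fold changes ran from -0.58 for Slc1a6 to 1.37 for Gpr17, and 1 member passed 1 in size. Nlgn1 had 20.3, 26.2, 23.3 and 20.8 CPM in cKO, against 12.1, 17.1, 20.2, 15.5 and 16.4 CPM in wt (0.47 ± 0.15, unadjusted p = 0.0102, adjusted p = 0.99995). B3galt5 had 33.4, 36.4, 30.3 and 31.3 CPM in cKO, against 21.3, 29.8, 27.2, 28.6 and 21.1 CPM in wt (0.35 ± 0.14, unadjusted p = 0.0328, adjusted p = 0.99995). In both genes all cKO libraries lay above all wt libraries, and 0.934% of all genes tested had groups that did not overlap in either direction. The sets of libraries differed far more than the genotypes in some members: Pcp4 had 162 and 135 CPM in cKO replicates 1 and 2 and 3.08 and 2.62 CPM in the other cKO replicates, and 196 and 117 CPM beside 2.56, 2.33 and 1.90 CPM in wt. The summed astrocyte markers ran from 5982 to 13737 CPM in cKO and from 3130.4 to 13269 CPM in wt, and their part in the values was not tested.

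The UNC1999 effect was also set against the Ezh1 cKO effect, with no library shared by the pair. No member was called for a difference between the effects (background 0% of 15453 genes). By edgeR 4 of 122 were under an unadjusted p of 0.05 (3.28%, against 1.60% of all genes tested), and by DESeq2 4 (against 1.83%). With the replicate number as a block in edgeR, 24 members were under 0.05 (19.7%, against 9.61%). Again no member was called, and 3 of all genes tested were. Rapgef3 had a difference of -1.24 ± 0.36 (unadjusted p = 0.00534), B3galt5 one of -0.67 ± 0.23 (unadjusted p = 0.0138), Cadm1 one of 0.47 ± 0.17 and the transcription repressor Zhx2 one of -0.37 ± 0.15 (adjusted p = 0.99994 for each).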

How the data were processed

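Polyadenylated RNA was sequenced as 75-base single-end reads on a NextSeq 500, per the labels' protocols. In the deposited table each value is the authors' estimated count for an Entrez gene, a whole number without normalization, made with Salmon 0.8.2 and the mm10 build as far as the submitters' processing notes go (annotation, gene summing and filters are not given in the sources used here). Of 24100 identifiers, 24045 were matched to a symbol. In the Ezh1 libraries 1041 genes, 6 members on X and Y among them, are blank and were left out of those fits.

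The members, gene lists and tests were chosen with earlier results of these data known. CPM is per library total. The P7, P12 and P21 Neurod1 TRAP values chose the members and are described without a test, as are the inputs and Math1 TRAP. The 8 cultures were fitted together, the 9 Ezh1 cultures alone, and the difference of effects over 13 libraries, with edgeR 4.0.16 in R 4.3.3 (filterByExpr with minimum count 10 and minimum total 15, TMM, robust quasi-likelihood tests, two-sided), adjusted by Benjamini-Hochberg over all genes of a comparison, with calls at an adjusted p under 0.05. There were 6 such comparisons. The fits were tested on simulated counts. Library totals of 12.1 M to 38.5 M limit precision mainly for genes at low levels, and reads carry no molecular identifiers.

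Same-numbered Ezh1 cKO and wt libraries deviated together (correlations of deviations from the group means of 0.849, 0.922, 0.892 and 0.854 over 11637 genes). Libraries of different number within a library set were not compared. These values therefore cannot tell a pairing by number from the difference between the sets. In the other cultures, same-numbered libraries did not deviate together (-0.39 to 0.21). Alternatives were library size scaling, DESeq2 1.42.0, no low-count filter, the replicate block, leaving out each library, and, for membership and inputs, pseudocount, minimum level, fold and TMM scaling. Genes named are the 20 highest scores, the edge of the rule, up to 5 members per direction and comparison by adjusted p without overlap, the steepest DIV2 maxima, the extremes of TRAP over input and of the inputs, and up to 4 members per list. Others, such as Galnt15, were named after their values were seen. Some named items are not reported here.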

Additional observations from a re-analysis of the deposited data

Results flagged for a closer look

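In each group of 4 or 5 libraries, the library farthest from the others was set against a limit for outliers (Dixon's 95% criterion), for the 20 highest scores and for the sum over all members. Of these 126 sets of values 6 passed it, and chance flags about 1 in 20. Nefh was at 1.32 CPM in Math1 replicate 1, above the others at 0.166 to 0.234 CPM, and at 12.1 CPM in P21 replicate 3, below the others at 16.1 to 17.5 CPM. Frzb was at 1.16 CPM in P7 Neurod1 replicate 4, below the others at 3.16 to 3.72 CPM. Myo1a was at 15.4 CPM in P12 replicate 1, above the others at 11.2 to 12.1 CPM. Lgr5 was at 5.75 CPM in P21 replicate 4, above the others at 4.25 to 4.42 CPM, and Megf10 at 10.5 CPM in P21 replicate 1, above the others at 7.15 to 7.81 CPM. The 6 values come from 6 different libraries. In the 5 cases from Neurod1 TRAP the P12 libraries still lay above those of P7 and P21.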

How the results depend on the processing

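The counts of members called between culture times stayed within 1.5 times under every alternative. Leaving out 1 library gave 101 to 107 higher and 10 to 12 lower at DIV2 against DIV0, 28 to 39 higher and 69 to 75 lower at DIV5 against DIV2, 91 to 95 higher and 19 to 22 lower at DIV5 against DIV0, and 60 to 67 with the DIV2 maximum. Library size scaling moved the calls over all genes for DIV5 against DIV2 to 5865 higher and 4354 lower, beside 4966 and 5699 with TMM, and the median of all genes to 0.09 beside -0.05 (for DIV5 against DIV0 to 0.15 beside 0.04); the members' counts became 42 and 67. For UNC1999 the counts were 19 higher and 11 lower with DESeq2, 35 and 18 without the low-count filter, and 19 to 35 and 7 to 23 over the libraries left out; the cause was not tested. Over all genes UNC1999 gave 498 higher and 457 lower with DESeq2, beside 1016 and 883 with edgeR. With the replicate block, where the numbers do not pair the culture libraries, the counts were 107 and 10, 31 and 74, 95 and 21, 66, and for UNC1999 25 and 15; with the DIV2 numbers crossed, added after seeing the data, they were 108 and 10, 34 and 76, 95 and 22, 69, and 37 and 21. The block changed no call of Ezh1 cKO against wt or of the difference of effects (0 members). For Ezh1 cKO against wt the same held with the library set as a term, in replicates 1 and 2 and in later replicates. These settings were also added later and were not run for the difference of effects. Of the 128 members, 126 were kept with a pseudocount of 0.1 or 1, 95 with a P12 minimum of 5 CPM, 99 with 20 CPM, 97 with TMM scaling, 115 to 125 without 1 library, and 128 of 150 if the prefixes were dropped before ranking. The count of 30 with a P12 input maximum was 109 at a fold of at least 1, 10 at 2, and 27 with TMM scaling. The median of TRAP over input was 1.22 with TMM scaling, with 14 members at most 0.5 (24 by library size) and 23 at least 2 (9 by library size). Of 520 values of 40 named genes 519 kept their direction and side of the threshold, and 1 lost its call (Aqp4 with UNC1999).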

Other observations

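Limits on these values come from depth and design. Cultures had 2 libraries per group and inputs 1 per age, and some members rested on few reads in culture, such as Nefh at 0.0434 and 0.125 CPM at DIV0. Of the 128 members, 70 had a higher mean at DIV2 than in P12 TRAP and 5 had a DIV0 mean under 1 CPM. The first count sets culture beside pull-down and was not tested.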
